A study of Mus musculus with 8 samples.

Results

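Cholesterol synthesis and sterol handling was followed through 33 genes chosen by symbol. They comprise 19 enzymes that build cholesterol, 5 regulators of that pathway, 4 genes of sterol transport and storage inside the cell and 5 genes of efflux, secretion and plasma lipoproteins. A gene was measured where an array probe carried a RefSeq accession belonging to its symbol. That held for 32 of the 33, of 26510 genes and unnamed transcripts tested in all, and Acat2 had no such probe. Whole livers of mice aged 10 to 11 weeks were profiled on 8 one-colour Agilent arrays in 4 groups of 2: liver specific Bcl-6 deficient males, wild type males, liver specific Bcl-6 deficient females and wild type females. Bcl6 encodes a transcriptional repressor, and the study's title places it in the setting of the sex difference of the liver. The promoter or Cre line behind the deletion, the strain, and whether a number marks a separate animal are not given in the sources used here. The p-values therefore measure only the spread between these 8 samples, which may be technical.

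Hepatocytes make cholesterol from acetyl-CoA by way of mevalonate, isoprenoid diphosphates, squalene and lanosterol. When sterols in the endoplasmic reticulum run low, the escort protein Scap carries the product of Srebf2 to the Golgi, where its active part is released and switches on nearly all enzymes of the pathway. When sterols are plentiful, Insig1 and Insig2 hold the complex back. Surplus cholesterol is esterified, passed to lipoproteins or secreted into bile, and sterol taken up with lipoproteins leaves the lysosome through Npc2 and Npc1.

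The levels below are log2 processed signals relative to the array's 75th percentile, so 0 is the 75th percentile of that array and a difference of 1 is a doubling on the linear scale. All 32 measured genes were called well above background by the scanner's software on all 8 arrays, and no filter on dim probes removed one. The arrays of a group correlated at 0.987 to 0.993 over the genes tested. All 8 lay on 1 slide with 1 scan time. The females were in row 1 and the males in row 2, so sex and row cannot be told apart, while both genotypes lay in each row. The probe for Bcl6 did not read lower in the livers labelled knockout. Averaged over the sexes, the difference (labelled knockout minus wild type) was 0.96 with an SE of 0.75 (limma adjusted p = 0.398), and the probe's position relative to the deleted part is not given, so it checks nothing. All 10 hepatocyte markers were well above background on all arrays. Summed levels of 6 B and plasma cell markers, in multiples of the 75th percentile, were 28.7 to 31.9 in males labelled knockout and 10.5 to 11.4 in wild type males, and 31.5 to 32.0 in females labelled knockout and 12.5 to 13.0 in wild type females. For 8 endothelial markers the sums were 110.9 to 118 in males labelled knockout and 75.7 to 78.9 in wild type males, and 108 to 112 in females labelled knockout and 92.6 to 99.3 in wild type females. Of the marker genes, averaged over the sexes, 4 of 6 B and plasma cell genes, 3 of 8 endothelial genes, 3 of 10 hepatocyte genes, 2 of 7 stellate genes, 1 of 6 T and NK cell genes, 1 of 4 erythroid genes and 0 of 10 macrophage genes rose in the labelled knockout, beside 9.82% of all genes. In the same comparison 1 hepatocyte gene, 1 stellate gene and 1 of 2 adrenal genes fell, beside 10.0% of all genes. The part of these cells in the results below was not tested. In whole liver, fewer cells of a type and less RNA per cell cannot be told apart.

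RefSeq promoters (GRCm38.p6, 250 bases before to 50 after the start) were held for 26 of the 33 genes. Some genes had several such windows, and a gene was counted where at least 1 of its windows held the letters. The letters CCAAT, read on both strands, occurred in 23 of these 26 genes (88.5%) and in 41.1% of 27025 genes. GGGCGG occurred in 21 (80.8%) against 38.2%. The sterol element letters CACNCCAC, of which CACCCCAC is 1 form, were found in 3 of the 26, Acat2, Hmgcs1 and Insig1, and in 7.12% of all genes. CACGTG was found in 6 of the 26 (23.1%, against 8.09%), and the Bcl6 core TTCCTNGAA in 0 (against 1.86%). A match describes letters, not a site. In the promoters printed here, the capitals mark CCAAT or its reverse complement, and CACNCCAC. Mvd and Lcat are shown as the genes with the largest rise and with the lowest adjusted p of the set, and Hmgcs1 for holding both kinds of motif. The Abcg8 window shown is that sharing 209 bases with the window of Abcg5, read from the opposite strand. The 2 transcripts moved together between arrays.
Mvd, chr8:122443373-122443672, minus strand: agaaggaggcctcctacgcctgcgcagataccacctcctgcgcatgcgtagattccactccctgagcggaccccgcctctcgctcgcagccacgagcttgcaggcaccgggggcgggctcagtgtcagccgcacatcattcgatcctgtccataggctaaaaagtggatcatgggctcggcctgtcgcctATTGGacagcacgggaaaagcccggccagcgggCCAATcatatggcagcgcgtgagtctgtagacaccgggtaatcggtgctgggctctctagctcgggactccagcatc
Lcat, chr8:105943353-105943652, minus strand: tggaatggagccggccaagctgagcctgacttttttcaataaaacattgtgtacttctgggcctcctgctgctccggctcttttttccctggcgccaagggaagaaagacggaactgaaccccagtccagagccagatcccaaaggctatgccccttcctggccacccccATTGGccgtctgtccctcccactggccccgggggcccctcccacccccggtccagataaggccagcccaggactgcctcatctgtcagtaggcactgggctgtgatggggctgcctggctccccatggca
Hmgcs1, chr13:119690101-119690400, plus strand: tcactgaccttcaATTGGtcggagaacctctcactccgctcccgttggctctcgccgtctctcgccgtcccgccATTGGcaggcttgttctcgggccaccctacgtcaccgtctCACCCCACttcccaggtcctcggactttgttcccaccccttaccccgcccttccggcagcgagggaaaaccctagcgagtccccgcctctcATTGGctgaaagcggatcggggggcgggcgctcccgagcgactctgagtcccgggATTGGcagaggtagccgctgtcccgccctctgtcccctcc
Abcg8, chr17:84682871-84683170, plus strand: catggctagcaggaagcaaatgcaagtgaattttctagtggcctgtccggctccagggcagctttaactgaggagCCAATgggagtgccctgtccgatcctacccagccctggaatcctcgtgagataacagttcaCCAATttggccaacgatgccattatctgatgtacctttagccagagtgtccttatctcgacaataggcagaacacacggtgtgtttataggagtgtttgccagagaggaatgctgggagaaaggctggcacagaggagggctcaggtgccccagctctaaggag

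The first comparison asked whether these genes differ between livers labelled knockout and wild type, averaged over the sexes. Most did not pass the test. Mvd, Fdft1 and Lcat rose and Npc1, Soat2 and Srebf2 fell, 6 of 32 at an adjusted p under 0.05 (limma, Benjamini-Hochberg over all 26510), which is 18.75% of the set beside 19.8% of all genes tested. The 3 that rose stood beside a background of 9.82% and the 3 that fell beside 10.0%, so the set was called at about the rate of the array as a whole. Its median difference was -0.08, beside -0.02 for all genes. Of the 32 differences, 13 lay above 0 and 19 below. Of the 32 genes, 23 (71.9%) had the same direction in males and in females, beside 72.3% of all genes. The plot of differences by sex shows every gene with its interval.

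**Figure D1:**
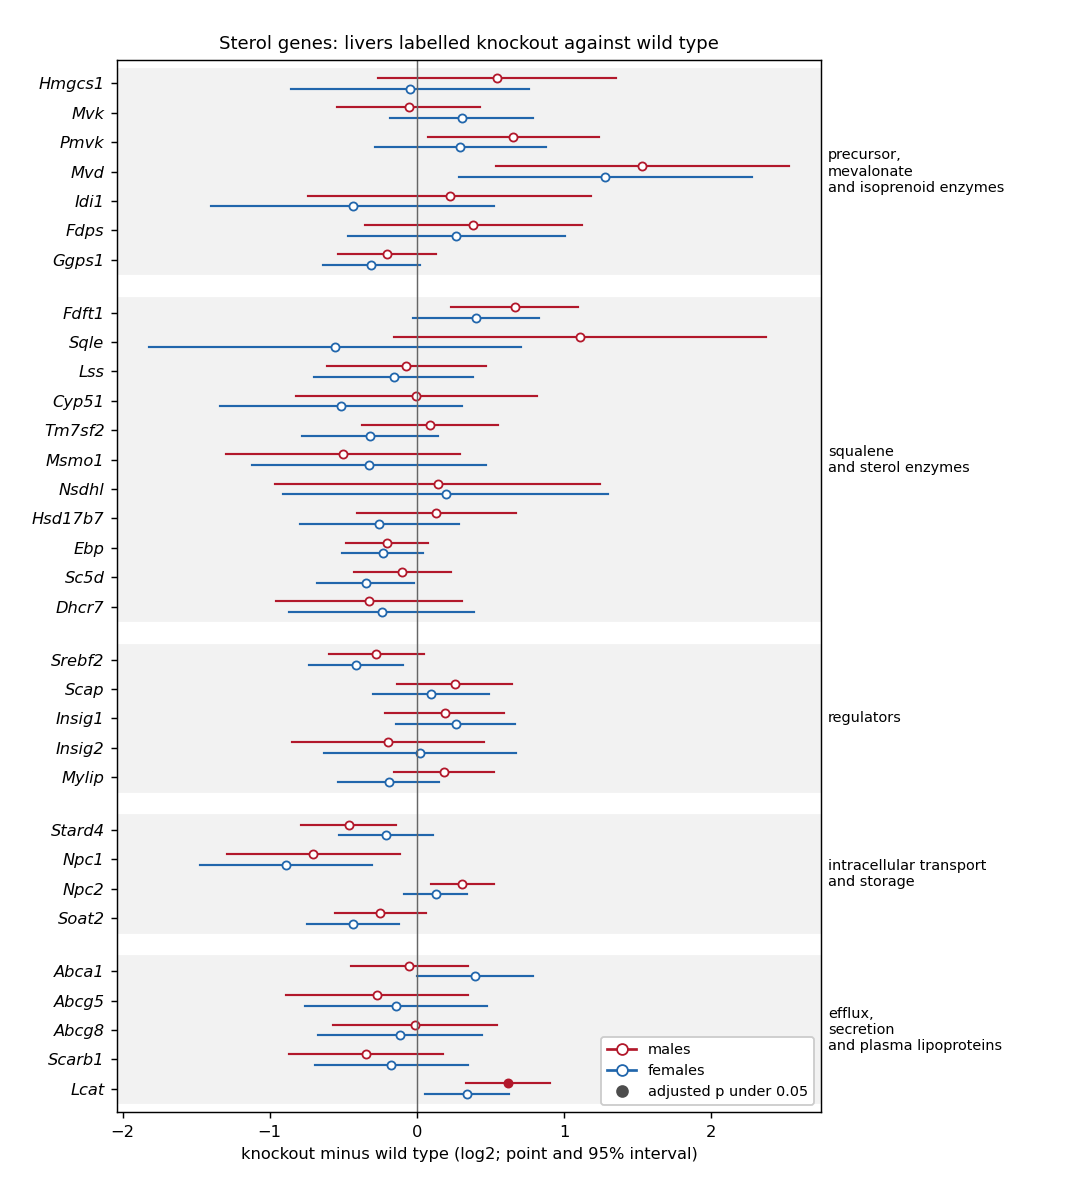
Difference between livers labelled knockout and wild type (log2, x axis) for the 32 measured sterol genes, grouped by role, in males (red, upper) and females (blue, lower). Points are fitted differences and lines 95% intervals from limma; the 1 filled point, Lcat in males at 0.62, passed an adjusted p under 0.05.

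Among the enzymes from acetyl-CoA to the isoprenoids, 1 of 7 changed. Mvd, which decarboxylates mevalonate diphosphate to make the first isoprenoid unit, read 2.03 and 2.30 in males labelled knockout, against 0.62 and 0.65 in wild type males. In females it read 1.73 and 2.44 in those labelled knockout, against 0.22 and 1.38 in wild type. All 4 arrays of the labelled knockout lay above all 4 of wild type, and the wild type females differed most between themselves. Averaged over the sexes Mvd was 2.65-fold higher in the labelled knockout (1.41 on the log2 scale, SE 0.29, adjusted p = 0.0226). Within males the difference was 1.53 (95% interval 0.54 to 2.53, adjusted p = 0.0696) and within females 1.28 (0.28 to 2.28, adjusted p = 0.127). Pmvk, the kinase just before Mvd, also had no overlap between the 4 and 4 arrays, with a difference of 0.48 that did not pass (adjusted p = 0.0979). Hmgcs1, which makes HMG-CoA, differed by 0.25 (interval -0.32 to 0.82). Mvk, Idi1 and Fdps, the mevalonate kinase, the isoprenoid isomerase and the farnesyl diphosphate synthase, differed by 0.12, -0.11 and 0.33, and each interval spanned 0. Ggps1, which leads isoprenoids towards protein prenylation and away from sterols, differed by -0.26 without overlap (adjusted p = 0.112). Of its 4 other probes, 1 passed over all kept probes (-0.37, adjusted p = 0.0464), and the others gave -0.21 to -0.11 (adjusted p = 0.148 to 0.487).

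Of the 11 enzymes from squalene to cholesterol, Fdft1 alone passed. Fdft1, squalene synthase, which commits isoprenoids to sterols, read 5.09 and 5.35 in males labelled knockout, against 4.34 and 4.78 in wild type males. The females labelled knockout read 4.98 and 5.11, against 4.62 and 4.66 in wild type females. The genotypes did not overlap in either sex, and the rise was 1.45-fold (0.53 on the log2 scale, SE 0.12, adjusted p = 0.0324). A second Fdft1 probe gave 0.50 (adjusted p = 0.0304 over all kept probes). Within males Fdft1 differed by 0.66 (adjusted p = 0.0683) and within females by 0.40 (adjusted p = 0.222). The value in males was 0.44 without male wild type replicate 1. The 9 steps after squalene epoxidation, by Lss, Cyp51, Tm7sf2, Msmo1, Nsdhl, Hsd17b7, Ebp, Sc5d and Dhcr7, gave averaged differences between -0.41 (Msmo1) and 0.17 (Nsdhl). All of these but Nsdhl were below 0, and none passed. Ebp, the sterol isomerase, differed by -0.22 (interval -0.41 to -0.02, adjusted p = 0.109), and its arrays did not overlap. For Hsd17b7, a sterol reductase, the 2 probes differed in sign, at -0.06 and 0.00. It was the only one of 15 genes with several probes whose probes did so in the average. Within males this held for Lss, Cyp51 and Abca1, and within females for Ggps1 and Insig2.

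Sqle, squalene epoxidase and a control point of the pathway, had opposite signs in the sexes without a test passing. It read 3.48 and 4.04 in males labelled knockout, against 2.33 and 2.97 in wild type males. The females labelled knockout read 2.51 and 3.67, against 3.12 and 4.17 in wild type females. The male arrays did not overlap between genotypes and the female arrays did. The difference was 1.11 in males (interval -0.15 to 2.37, adjusted p = 0.232) and -0.56 in females (-1.82 to 0.71, adjusted p = 0.544). The interaction (the difference in males minus that in females) was 1.67 (interval -0.12 to 3.45, adjusted p = 0.614), and it had the lowest unadjusted p of the set in that test. It was 1.09 without female knockout replicate 1.

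Of the 5 regulators, Srebf2 fell. Srebf2 encodes the transcription factor of the pathway. It read -1.35 and -1.20 in males labelled knockout, against -1.15 and -0.85 in wild type males. The females labelled knockout read -1.08 and -1.05, against -0.69 and -0.61 in wild type females. Within each sex both arrays of the labelled knockout lay below both of wild type. The difference was -0.34 (SE 0.09, adjusted p = 0.0495, at the edge of the threshold), with -0.28 in males (adjusted p = 0.240) and -0.41 in females (adjusted p = 0.126). Scap, Insig1 and Insig2 differed by 0.18, 0.23 and -0.09, and each interval spanned 0. Mylip, a ubiquitin ligase that removes lipoprotein receptors, differed by 0.18 in males and -0.19 in females (interaction 0.38, adjusted p = 0.689, and 0.22 without female wild type replicate 1).

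Intracellular transport and storage was the role in which all 4 genes had an unadjusted p under 0.05, beside 36.3% of all genes, and 2 of the 4 fell. Npc1, the membrane protein that exports cholesterol from the lysosome, read 3.33 and 3.35 in males labelled knockout, against 3.75 and 4.33 in wild type males. The females labelled knockout read 3.61 and 3.26, against 4.52 and 4.13 in wild type females. All 4 arrays of the labelled knockout lay below all 4 of wild type. Npc1 fell by 0.80 on the log2 scale (SE 0.17, adjusted p = 0.0251), with -0.70 in males (adjusted p = 0.126) and -0.89 in females (adjusted p = 0.0900). Soat2, which esterifies cholesterol in hepatocytes, read 3.73 and 3.98 in males labelled knockout, against 4.06 and 4.14 in wild type males. The females labelled knockout read 3.98 and 3.83, against 4.41 and 4.27 in wild type females. The genotypes overlapped in neither sex, and Soat2 fell by 0.34 (SE 0.09, adjusted p = 0.0464). Its other probe gave -0.28 (adjusted p = 0.113), so the call rests on 1 of 2 probes.

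The 2 other genes of that role ran in opposite directions just outside the threshold. Stard4, a cytosolic sterol carrier, differed by -0.34 (adjusted p = 0.0518), and its second probe by -0.36. Npc2 hands cholesterol to Npc1 inside the lysosome. It read 3.28 and 3.29 in males labelled knockout, against 2.98 and 2.97 in wild type males, and 3.40 and 3.37 in females labelled knockout, against 3.26 and 3.27 in wild type females. Its replicates agreed within 0.03 in every group. The averaged difference of 0.22 did not pass (adjusted p = 0.0566).

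Of the 5 genes of efflux, secretion and plasma lipoproteins, Lcat rose. Lcat is secreted by hepatocytes and esterifies cholesterol on plasma lipoproteins. It read 6.06 and 6.17 in males labelled knockout, against 5.52 and 5.47 in wild type males. The females labelled knockout read 6.30 and 6.11, against 5.94 and 5.78 in wild type females. All 4 arrays of the labelled knockout lay above all 4 of wild type. Lcat was 1.39-fold higher averaged over the sexes (0.48, SE 0.08, adjusted p = 0.0131), the lowest adjusted p among the 32. Scarb1, the receptor for high-density lipoprotein, differed by -0.26 (interval -0.63 to 0.11), and Abca1, which lipidates apolipoprotein A-I, by 0.17 (-0.11 to 0.45). Abcg5 and Abcg8, the 2 subunits of the transporter that secretes sterols into bile, differed by -0.20 (-0.64 to 0.23) and -0.06 (-0.46 to 0.33).

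**Figure D2:**
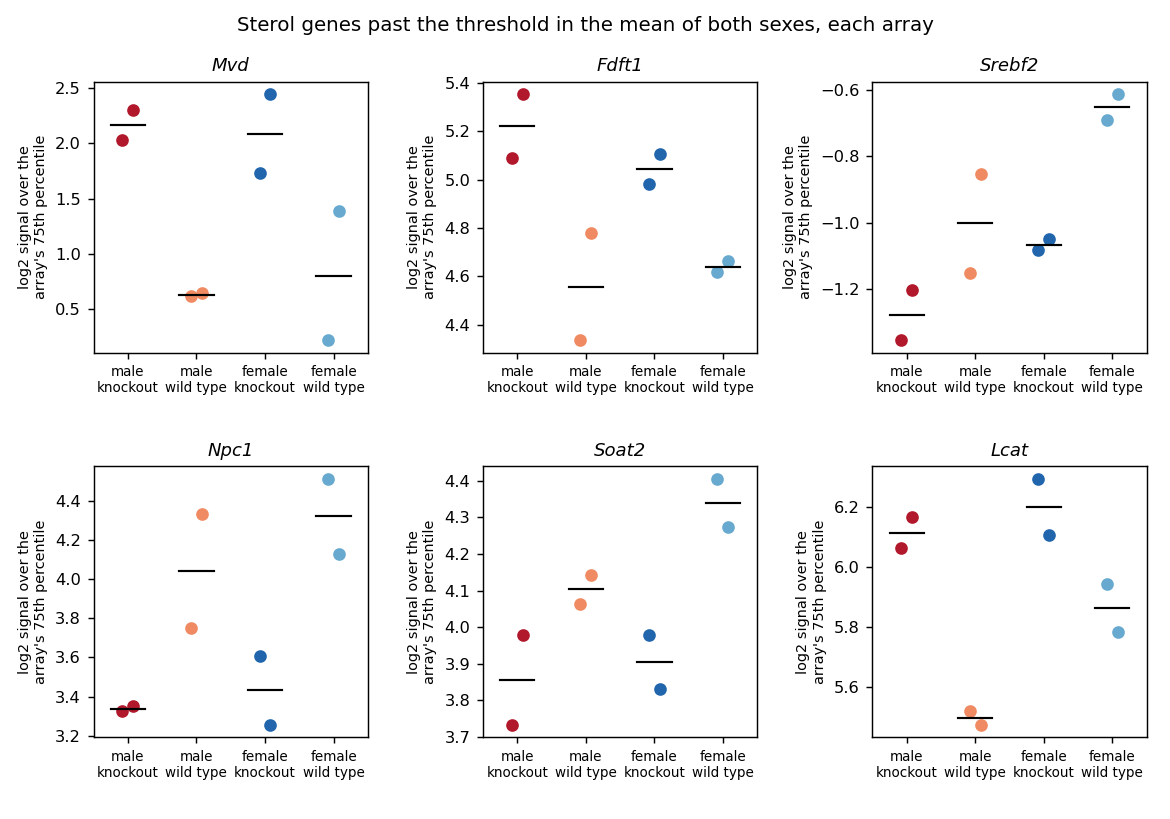
Level of the 6 sterol genes with an adjusted p under 0.05 averaged over the sexes (y axis, log2 signal relative to the array's 75th percentile) in each of the 8 arrays; points are arrays and bars group means (n = 2). Mvd, Fdft1 and Lcat lie higher in the labelled knockout of each sex, and Srebf2, Npc1 and Soat2 lie lower; the spread of Mvd is widest in wild type females, at 0.22 and 1.38.

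Taken within 1 sex, few genes passed. In males only Lcat did, 1.53-fold higher in the labelled knockout (0.62, SE 0.12, adjusted p = 0.0266), 1 of 32 beside a background of 10.7%, with 7 of 32 (21.9%) at an unadjusted p under 0.05, beside 27.2%. In females 0 of 32 passed in limma, beside 5.93%, with 6 of 32 (18.75%) at an unadjusted p under 0.05, beside 24.9%. Arrays of the 2 genotypes did not overlap for 16 genes in males (50%, beside 62.0%) and 17 in females (53.1%, beside 55.5%). For 11 genes the genotypes overlapped in neither sex and differed in the same direction (34.4%, beside 33.8%), and averaged over the sexes 11 had an unadjusted p under 0.05 (34.4%, beside 36.3%). In the interaction 0 of 32 passed (0.185% of all genes did) and 0 of 32 had an unadjusted p under 0.05 (beside 8.38%). After Sqle, the lowest p belonged to Abca1 (-0.45, adjusted p = 0.681), which read 3.03 and 3.03 in males labelled knockout, against 3.14 and 3.03 in wild type males, and 3.07 and 2.98 in females labelled knockout, against 2.41 and 2.86 in wild type females. The interaction of Abca1 was -0.22 without female wild type replicate 1 and -0.67 without female wild type replicate 2, and its other probe gave -0.13 (adjusted p = 0.906). These counts use 1 probe per gene. Another probe of Lss gave an interaction of 0.70 (limma unadjusted p = 0.028, adjusted p = 0.518). Another of Ggps1, whose probes differed in sign, gave -0.49 (unadjusted p = 0.0462, adjusted p = 0.585).

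Every call was lost without at least 1 of the 8 arrays. Averaged over the sexes, 0 of the 32 genes passed without male knockout replicate 2 and 1 without male knockout replicate 1 or female knockout replicate 2. The count was 2 without male wild type replicate 2, 3 without female knockout replicate 1, female wild type replicate 1 or male wild type replicate 1, and 4 without female wild type replicate 2. Over all genes the count lay between 2572 and 5274 in these fits, against 5257 with all arrays. Lcat lost its averaged call only without male knockout replicate 2 (adjusted p = 0.0571), and its call in males without any 1 of the 4 male arrays (0.0827 to 0.147). Mvd lost its call without either male knockout, either male wild type array or female knockout replicate 2 (0.0600 to 0.0767). Npc1 lost its call without either male knockout array, male wild type replicate 2, female knockout replicate 2 or female wild type replicate 1 (0.0535 to 0.0783). Soat2 lost its call in all 8 fits (0.0646 to 0.135), Fdft1 in all but that without male wild type replicate 2 (0.0569 to 0.104), and Srebf2 in all but that without male wild type replicate 1 (0.0737 to 0.149). The direction of these 6 genes could not reverse in such a fit, because their genotypes overlapped in neither sex. That it held adds no support.

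The enzymes varied more between the arrays of a group than other genes did, and in 3 of the 4 groups they varied together. The median within-group SD was 0.286 for the 18 measured enzymes, 0.168 for the 14 other sterol genes and 0.169 for all genes, and 15 of the 18 enzymes lay above the median of all genes. In male wild type livers, 18 of 18 enzymes read higher on the array numbered 2 than on that numbered 1, with a median difference of 0.43. The same holds for 16 of 18 in males labelled knockout (median 0.31) and 17 of 18 in females labelled knockout (0.37). In wild type females 9 of 18 did (0.01). Over all genes the share was 47.5% in males labelled knockout, 50.6% in wild type males, 50.5% in females labelled knockout and 46.7% in wild type females. The numbers are names in the labels. On the slide, however, the arrays numbered 1 lay in columns 1 and 2 and those numbered 2 in columns 3 and 4. Replicate number and slide column therefore cannot be told apart. Sqle had an SD of 0.629, and its 2 arrays differed by 1.16 in females labelled knockout and by 1.05 in wild type females. Nsdhl, a sterol dehydrogenase, differed by -1.31 between the wild type females, the widest gap of any gene in the set in that group. The widest 95% intervals of the set in the comparisons of 2 groups belonged to Sqle, Nsdhl, Mvd and Idi1, in which a modest difference was not detectable with 2 arrays a group.

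**Figure D3:**
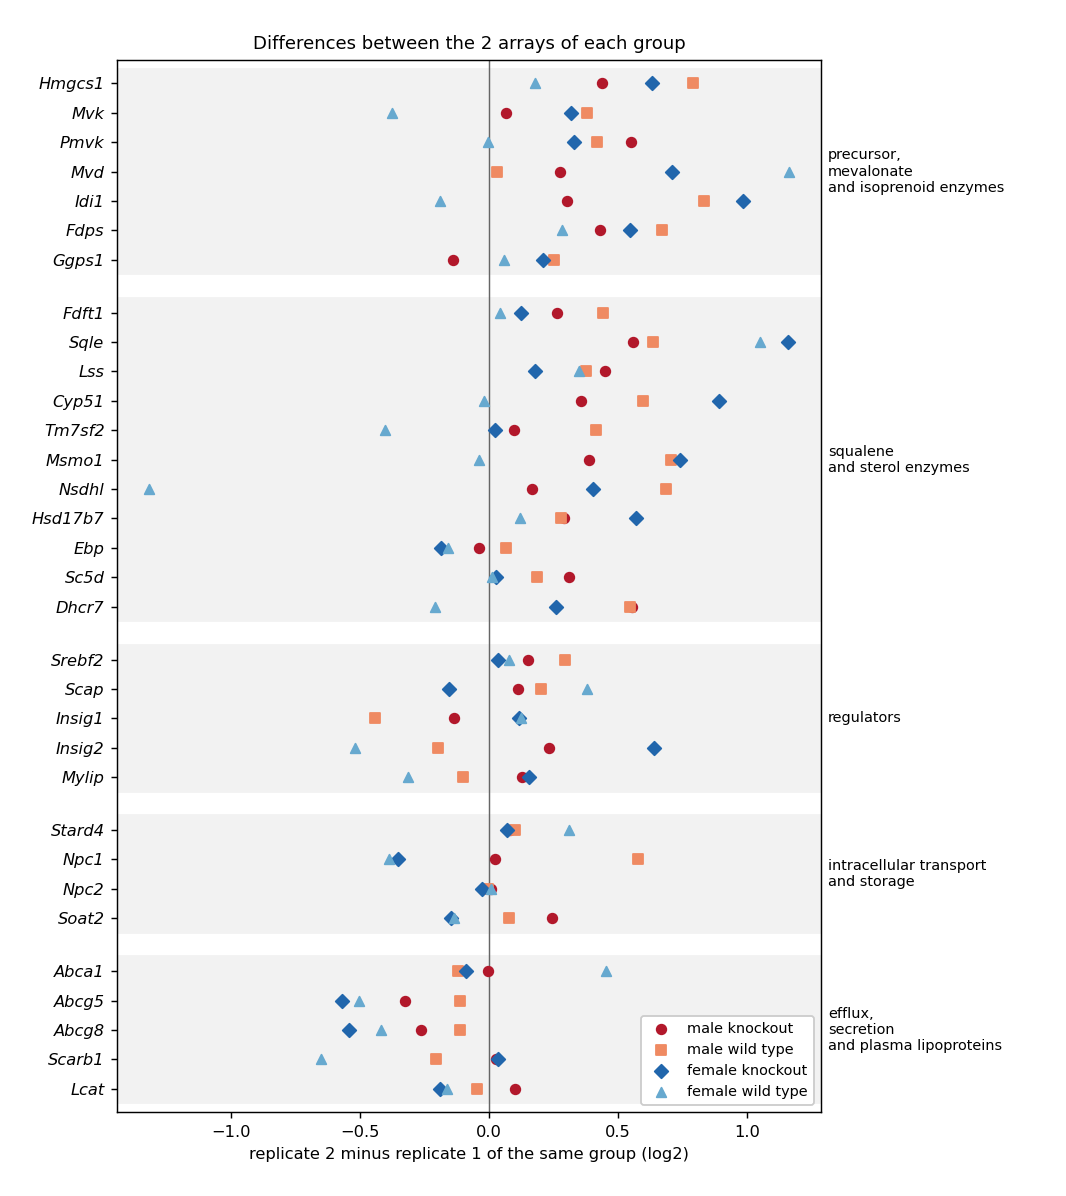
Difference between the 2 arrays of each group (replicate 2 minus replicate 1, log2, x axis) for the 32 sterol genes, by role; marker shape and colour give the group. In 3 of the 4 groups the enzymes lie mostly to the right of 0 (16, 18 and 17 of 18), while Abcg5 and Abcg8 lie to the left in all 4.

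Abcg5 and Abcg8 ran the other way in all 4 groups and by near-equal amounts. Replicate 2 minus replicate 1 was -0.32 for Abcg5 and -0.26 for Abcg8 in males labelled knockout, and -0.11 for each in wild type males. It was -0.57 and -0.54 in females labelled knockout, and -0.50 and -0.42 in wild type females. Both genes have a start in the window printed above, on opposite strands. Another Abcg8 window was held, at chr17:84676052-84676351, and which start was in use was not tested.

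The next comparison was between the sexes. In livers labelled knockout, 0 of 32 genes passed between males and females (limma, beside 0.0754% of all genes), and 0 of 32 had an unadjusted p under 0.05 (1590 of all 26510 genes had one). For the enzymes, 17 of 18 differences were above 0, higher in males, beside 13599 of all 26510 genes. Their median was 0.19, beside 0.01 for all genes. The enzymes shifted together between the arrays of a group, so the 18 are not separate observations. Without male knockout replicate 2 the count above 0 fell to 11 of 18 (median 0.07). Without female knockout replicate 1 it was also 11 of 18 (0.03). Under every scaling tried it was 17, on these same arrays. The 3 genes of lowest p were Tm7sf2, a sterol reductase, at 0.38 (interval -0.08 to 0.84), Insig2 at 0.53 (-0.12 to 1.19) and Srebf2 at -0.21 (-0.53 to 0.11), with adjusted p-values between 0.871 and 0.899. Tm7sf2 read 6.59 and 6.69 in males labelled knockout, against 6.25 and 6.27 in females labelled knockout. Insig2 read 4.70 and 4.93 in males labelled knockout, against 3.96 and 4.60 in females labelled knockout. Its difference was 0.21 without female knockout replicate 1 and 0.86 without female knockout replicate 2. That of Srebf2 was -0.14 without male knockout replicate 1 and -0.09 with normexp background correction.

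In wild type livers 0 of 32 genes passed between males and females (beside 0.962% of all genes) and 6 of 32 had an unadjusted p under 0.05 (18.75%; 4778 of all 26510 genes had one). These were Insig2 and Abca1, higher in males, and Srebf2, Mylip, Npc2 and Lcat, lower in males. Npc2 had the lowest p, at -0.29 (interval -0.50 to -0.07, adjusted p = 0.186), with 2.98 and 2.97 in wild type males against 3.26 and 3.27 in wild type females. Lcat differed by -0.37 (-0.65 to -0.08, adjusted p = 0.198), with 5.52 and 5.47 in males against 5.94 and 5.78 in females. Insig2, which holds Scap in the endoplasmic reticulum, differed by 0.75 (0.10 to 1.40, adjusted p = 0.231), with 5.11 and 4.91 in males against 4.52 and 4.0 in females, and by 0.49 without female wild type replicate 2. The comparisons between sexes use the same arrays as those between genotypes, so the values are not independent of them. The enzymes had a median difference of -0.05, with 7 of 18 above 0. The count was 15 of 18 without male wild type replicate 1 (median 0.12) and 2 of 18 without male wild type replicate 2 (-0.19), so it rests on single arrays. Arrays of the sexes did not overlap for 7 of the 32 genes in the labelled knockout (beside 41.3%) and 10 in wild type (beside 47.8%). None of the sex differences in the set changed with genotype at the threshold, as the interaction above gives.

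**Figure D4:**
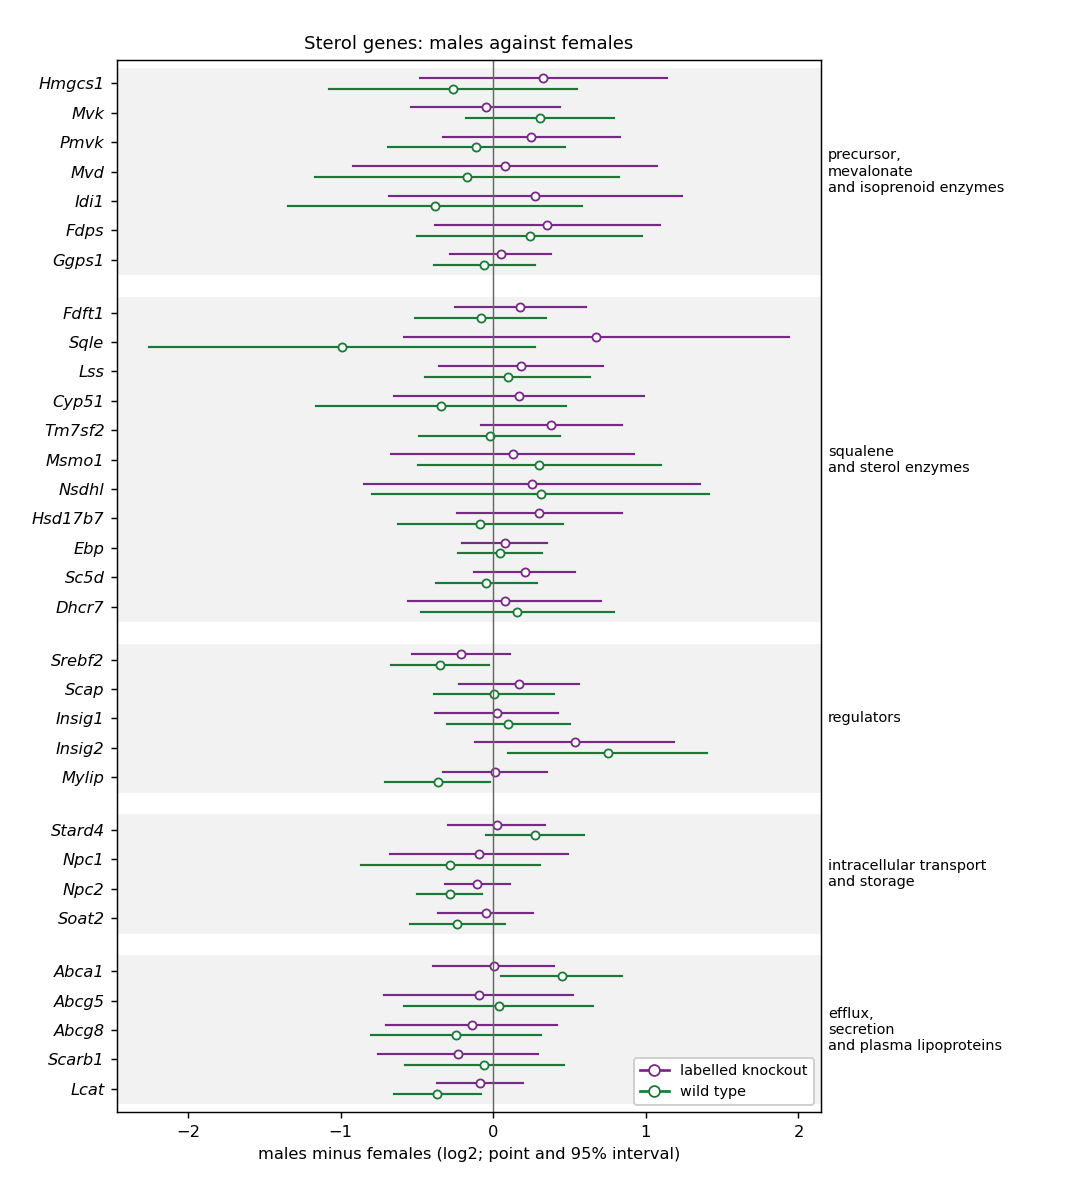
Difference between males and females (males minus females, log2, x axis) for the 32 sterol genes by role, in livers labelled knockout (purple, upper) and wild type (green, lower), with 95% intervals from limma. No gene passed an adjusted p under 0.05; 17 of 18 enzymes lie right of 0 in the labelled knockout (11 of 18 without male knockout replicate 2 or female knockout replicate 1) and 7 of 18 in wild type (15 and 2 of 18 without male wild type replicate 1 and replicate 2).

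Genes next to the pathway were read from 3 lists, chosen with earlier results of these data known. Among 13 genes of the non-sterol branches (prenylation, ubiquinone and dolichol), 0 passed averaged over the sexes, beside 19.8% of all genes, and 6 had an unadjusted p under 0.05 (beside 36.3%), with a median of -0.15. That 0 depends on the processing. With normexp background correction 5 of 13 fell, and with an intensity trend in the variance 3 of 13. With probes well above background on all arrays 1 of 12 fell. Over all genes at most 6359 passed under any alternative. The closest were Pdss1 (-0.40, adjusted p = 0.0644), which builds the ubiquinone side chain, and Rabggtb (-0.26, adjusted p = 0.0657), a prenyltransferase subunit. Fnta and Icmt, of protein farnesylation and methylation, differed by -0.21 and -0.31 (adjusted p = 0.0893 and 0.0926). Among 13 tested genes of sterol sensing, 1 rose and 2 fell (23.1%, beside 19.8%). Nr1h4, the bile acid receptor FXR, read 4.29 and 4.38 in males labelled knockout, against 5.01 and 5.15 in wild type males, and 4.14 and 4.09 in females labelled knockout, against 5.32 and 5.07 in wild type females. It fell by 0.91 on the log2 scale (SE 0.09, adjusted p = 0.00202), by 0.74 in males (adjusted p = 0.0182) and by 1.07 in females (adjusted p = 0.00908). Lpcat3, a phospholipid remodelling enzyme, fell by 0.50 (adjusted p = 0.0318), and Ch25h, which makes an oxysterol, rose by 0.48 (adjusted p = 0.0396). With normexp background correction Ch25h differed by 0.12 (adjusted p = 0.185), and its call was also lost with an intensity trend in the variance, with no filter on dim probes and with the replicate block (adjusted p = 0.0609 to 0.105). Erlin1, of the endoplasmic reticulum, differed by 0.45 (adjusted p = 0.0737).

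Of the 3 lists, that of intracellular sterol transport outside the 33 genes had the highest share called. Because earlier results were known when it was chosen, its shares describe the list and do not test it against all genes. Of its 17 tested genes, 4 rose and 3 fell averaged over the sexes (41.2%, beside 19.8%). In males 5 rose and 1 fell (35.3%, beside 10.7%), and in females 3 rose and 0 fell (17.6%, beside 5.93%). Averaged over the sexes 3 to 7 passed when 1 array was left out, with 3 without male knockout replicate 2. In males 0 passed without either male knockout array, and in females 0 passed without either female knockout array or in a fit of the 2 female groups alone. Gramd1b moves cholesterol from the plasma membrane to the endoplasmic reticulum. It read -1.71 and -1.82 in males labelled knockout, against -2.98 and -3.55 in wild type males, and -1.15 and -1.14 in females labelled knockout, against -2.60 and -3.06 in wild type females. Its rise was 1.59 (SE 0.16, adjusted p = 0.00242), and 0.60 with normexp background correction (adjusted p = 0.000678). Tmem97, a membrane protein that binds Npc1, read 5.76 and 5.85 in males labelled knockout, against 4.40 and 4.66 in wild type males, and 5.33 and 5.69 in females labelled knockout, against 4.67 and 4.40 in wild type females. It rose by 1.13 (SE 0.12, adjusted p = 0.00309). Stard5, a lipid carrier related to Stard4, rose by 0.91 (SE 0.10, adjusted p = 0.00272). Scp2, a sterol carrier protein, fell by 0.46 (SE 0.08, adjusted p = 0.0121). The genotypes did not overlap for these 4 genes in either sex. The same held, in 1 direction, for 33.8% of all genes, and these 4 were named for the lowest adjusted p of their list. With no filter on dim probes, calls were lost for Stard5 in each sex, Nr1h4 and Scp2 in males and Tmem97 in females. That of Lpcat3 in the average was lost there too (limma adjusted p = 0.051 to 0.099 for all of these). In females, Nr1h4 lost its call in a fit of the 2 groups alone (0.0680), and Tmem97 with the replicate block (0.0519).

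Averaged over the sexes, Gramd1b, Tmem97, Stard5 and Nr1h4 kept their calls without any 1 array (highest adjusted p 0.0144, 0.0184, 0.0166 and 0.0136). Within a sex, the call of Nr1h4 was lost in males without either male knockout array or male wild type replicate 2 (0.0892 to 0.106), and in females without either female knockout array (0.0562 to 0.0592). In males, Gramd1b and Stard5 lost their calls without either male knockout array or male wild type replicate 2 (0.0515 to 0.0861), Tmem97 without either male knockout array (0.0564 to 0.0709) and Scp2 without any 1 of the 4 male arrays (0.0703 to 0.111). In females, Gramd1b lost its call without either female knockout array or female wild type replicate 2 (0.0513 to 0.0859). Stard5 lost its call in females without those 3 arrays or either male knockout array (0.0503 to 0.0951), and Tmem97 in all but the fit without female wild type replicate 1 (0.0512 to 0.120). Scp2 lost its averaged call only without male knockout replicate 2 (0.0527). Lpcat3 lost its call without any 1 of the 4 labelled knockout arrays, female wild type replicate 2 or male wild type replicate 2 (0.0657 to 0.0987). Ch25h lost its call in all but the fit without female knockout replicate 2 (0.0657 to 0.123).

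**Figure D5:**
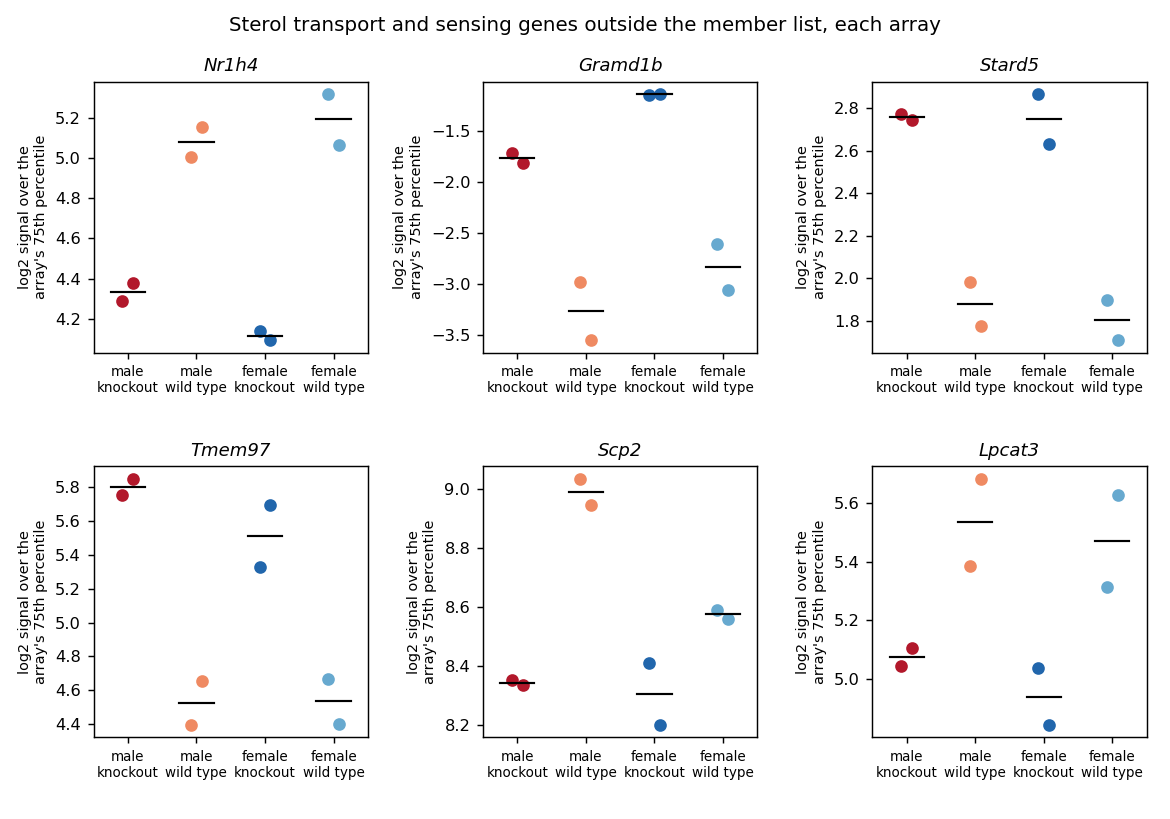
Level of Gramd1b, Stard5, Tmem97, Nr1h4, Scp2 and Lpcat3, named from the lists of sterol sensing and transport (y axis, log2 signal relative to the array's 75th percentile) in each array; points are arrays and bars group means (n = 2). Gramd1b, Stard5 and Tmem97 lie higher in the labelled knockout of each sex, and Nr1h4, Scp2 and Lpcat3 lie lower.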

How the data were processed

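Whole liver RNA of the mice, extracted with Trizol per the labels' protocols, was hybridised to 8 one-colour (Cy3) Agilent arrays and grouped by the sample titles. The intensity values used, per the file headers, had been background-subtracted and corrected for a spatial trend with Agilent Feature Extraction 11.5.1.1 by the authors (9.1.3.1 per the submitters' processing notes). The authors' deposited table of log2 values differed from the log2 processed signals by a single offset on each array (6.99 to 7.30), within 0.01 for 100% of probes.

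Spots flagged as uneven or outlying (55 to 139 of 62976 per array) were left out, and 0 spots were saturated. Spots of a probe were averaged, log2 was taken and the 75th percentile of each array (127 to 158 on the linear scale) was subtracted. A probe was kept where both arrays of any group called it well above background (33580 probes), and the brightest kept probe stood for a gene (26510 tested, 15496 with a symbol). By accession, 32994 of 56605 probes were named through the RefSeq gene list (GRCm38.p6). Group means of the 4 groups were fitted with limma 3.58.1 (R 4.3.3; 4 residual and 2.08 prior degrees of freedom), with two-sided p-values adjusted by Benjamini-Hochberg over all genes and a threshold of 0.05. The fit was tested on simulated data. The median SE was 0.162 for 2 groups, 0.115 averaged over the sexes and 0.229 for the interaction, limited by the number of arrays.

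The sterol genes, the further lists and the markers were chosen with earlier results of these data known. All sterol genes are named, with every array's value for those past the threshold and for the 3 lowest p-values of each comparison. Of each further list up to 4 genes are named. Alternatives were the deposited table, normexp (offset 50, on median signals), median centring, quantile normalization, other filters on dim probes, averaging a gene's probes, an intensity trend, fits of 2 groups only, the replicate number as a block, and each array left out. Some genes of the pathway are not reported here.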

Additional observations from a re-analysis of the deposited data

How the results depend on the processing

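Under 18 alternatives none of the 37 single-gene results recomputed changed sign. The 37 were picked for passing or for a low p in these data. The intensity trend, the replicate block and the fits of 2 groups change the SE and not the difference. The kept sign is therefore no independent support. The median difference of the sterol genes moved by less than its spread between replicates (0.186) in all of them, although averaged over the sexes it lay between -0.157 and 0.0533 when 1 array was left out, on both sides of 0. With no filter on dim probes, 1 sterol gene in place of 6 passed averaged over the sexes and 0 in place of 1 in males, with 2614 of all genes passing in the average, 1223 in males, 521 in females, 91 between the sexes in wild type and 16 in the interaction. The 1 gene left was Lcat, so the calls of Mvd, Fdft1, Npc1, Soat2 and Srebf2 were lost there. With an intensity trend in the variance, 5 sterol genes passed in males and 1 in females, beside 2477 of all genes in females, 584 between the sexes in wild type and 82 in the interaction. With normexp correction 5 passed in males and 2 in females, beside 2647 in females, 610 and 9 between the sexes in wild type and in the labelled knockout, and 74 in the interaction. In fits of only the 2 groups compared, 2 sterol genes passed in males. Over all genes those fits gave 367 in females, 43 between the sexes in wild type and 11 in the labelled knockout. For males, the count over all genes was 2835 (10.7%) in the main fit and at most 3503 under any alternative. It is not given for each setting, so the 367 in females is no base rate for the 2 in males. With probes well above background on all arrays, 1 gene of all passed between the sexes in the labelled knockout. The cause was not tested.

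Without 1 array, 0 to 4 sterol genes passed averaged over the sexes and 0 to 3 in males. Over all genes these fits gave 2572 to 5274 in the average, 808 to 3173 in males, 404 to 1632 in females, 96 to 493 between the sexes in wild type, 9 to 20 in the labelled knockout and 0 to 123 in the interaction. Each such fit has 1 array fewer, and a group left with 1 array is assumed to vary like the others. The calls of Soat2 and Srebf2 were also lost under median centring, quantile normalization and averaging of a gene's probes, that of Soat2 with the replicate block (adjusted p = 0.0693) and that of Srebf2 with normexp correction (-0.20, adjusted p = 0.0574). The fit of every kept probe, which gave the second probes, was added after the data were seen.

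Arrays with the same replicate number in different groups deviated together only weakly over all genes tested (correlations of -0.0017 to 0.102). The numbers were therefore not taken to pair the arrays in the main fit. That check cannot speak for the enzymes alone. Of these, 8 of 18 read higher in replicate 2 in all 4 groups, beside 7.63% of all genes. An effect of replicate number or slide column on the sterol genes was not tested. With the replicate block 4 sterol genes in place of 1 passed in males, where at most 3503 of all genes passed under any alternative. In the interaction 25 of all genes passed with it.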
